A study of Mus musculus with 10 samples.

Results

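Salivary glands of female NOD/shiLtJ mice without diabetes were compared at 21 and 6 weeks of age. NOD/shiLtJ is an inbred strain in which lymphocytes spontaneously attack the pancreatic islets and gather in the salivary glands. The comparison used the 3 arrays labelled 21-week-old without diabetes and the 3 arrays labelled 6-week-old, 6 of the 10 arrays in the series. The other 4 arrays were from female mice of that strain aged 21 weeks with type 1 diabetes, and they are given beside the 2 nondiabetic groups as a reference. All 10 samples were gland tissue cut up and digested with dispase II and collagenase IV, with the released cells filtered before RNA extraction, so cells lost in digestion are not represented. The labels name no transgene, treatment, pooling of animals or gland (submandibular, sublingual or parotid). They number the samples of a group without saying that each came from its own mouse, so p-values measure the spread between these samples.

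The values are log2 intensities of Affymetrix probe sets. A gene was represented by its brightest probe set with 1 gene symbol, which left 18826 genes above the filter on dim probe sets. A log2 difference is the nondiabetic 21-week mean minus the 6-week mean, given with its standard error from limma, and the threshold was a Benjamini-Hochberg adjusted p under 0.05 over all 18826 genes. Array values are listed for 21-week arrays 1, 2 and 3 and then for 6-week arrays 1, 2 and 3. No arrays held identical values.

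The mouse salivary gland secretes from serous and mucous acini, and its granular convoluted tubules, ducts of the submandibular gland, store tissue kallikreins and growth factors. These tubules mature after puberty under androgen and thyroid hormone. In NOD mice, infiltrates of T and B cells gather around ducts and vessels as the animals age. Cells exposed to interferon raise their antigen-presentation machinery, namely the MHC class I heavy chains with B2m, the peptide transporter, the immunoproteasome and, after interferon gamma, MHC class II.

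A pair of arrays stood apart from the rest, each in a different measure. On 6-week array 1, labelled female, Xist, the RNA that silences an X chromosome in female cells, was at 2.86, against 7.50 to 7.96 on the other 9 arrays. Kdm6a, an X-linked gene that escapes silencing, was at 5.96 on that array and at 6.87 to 7.39 on the other 9. The X-linked genes Ddx3x, at 7.74 against 7.81 to 8.49, and Kdm5c, at 6.35 against 6.38 to 6.77, were only just below the other 9 on that array. That array's median difference from the mean of 6-week arrays 2 and 3 was 0.0045 over 649 X-linked genes and -0.0049 over autosomal genes. The Y-linked genes Eif2s3y, Uty, Kdm5d and Usp9y were at 1.38 to 2.32 on all 10 arrays, below each array's 25th percentile of 2.58 to 2.70. The 21-week array 3 correlated at 0.926 to 0.930 with the other 5 nondiabetic arrays, and its 75th percentile was 4.62 against 4.83 to 4.87. Those 5, with 6-week array 1 among them, correlated at 0.962 to 0.969 among themselves. Results are therefore also given without 6-week array 1, without 21-week array 3 and without both, the last chosen after seeing the data. As for the tissue label, Klk1, a tissue kallikrein, was at 12.91 to 13.03 on the 6 nondiabetic arrays, while the mean of 7 exocrine pancreas genes was 3.55 to 3.95.

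At the adjusted threshold 5 genes differed between the ages, 0.0266% of those tested. Coch rose (0.00531% of genes tested were called higher) and Tll1, 2310057J18Rik, Chn2 and Pim3 fell (0.0212% were called lower). The groups of arrays did not overlap at any of the 5. All 10 arrays shared 1 estimate of the spread; with the 6 nondiabetic arrays alone 0 genes passed in limma, and 1377 had an unadjusted p under 0.05, against 1406 with all 10.

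Coch encodes cochlin, a secreted matrix protein best known from the inner ear. It was at 6.61, 6.18 and 6.31 at 21 weeks and at 4.70, 4.39 and 4.92 at 6 weeks. The lowest 21-week array was thus well above the highest 6-week array. The mean was 6.37 ± 0.22 (SD, n = 3) at 21 weeks and 4.67 ± 0.27 (SD, n = 3) at 6 weeks, a log2 difference of 1.70 ± 0.16 (SE), or 3.25-fold, with a limma adjusted p of 0.00279. The diabetic arrays lay at 6.06 to 6.29, close to the nondiabetic 21-week arrays (diabetic minus nondiabetic -0.20 ± 0.15, limma adjusted p = 0.562). Without both doubtful arrays the Coch difference was 1.74 ± 0.21 (limma adjusted p = 0.0451).

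Tll1 encodes a metalloprotease of the BMP1 and tolloid family, which trims procollagens and releases bone morphogenetic proteins from an inhibitor. It was at 3.67, 4.17 and 4.05 at 21 weeks and at 5.71, 6.00 and 6.35 at 6 weeks. All 21-week arrays were at least 1 log2 unit below all 6-week arrays. It fell by 2.05 ± 0.23 on the log2 scale, 4.15-fold (limma adjusted p = 0.0057), and by 2.25 ± 0.28 without both doubtful arrays (limma adjusted p = 0.0451). The diabetic arrays, at 3.42 to 4.24, lay on the level of the nondiabetic 21-week arrays.

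The gene 2310057J18Rik, for which RefSeq lists Leg1 as a synonym, lay outside the rule for named genes, which leaves out such provisional names, and is described because it was 1 of the 5, so it was chosen after its values were seen. It was at 10.50, 9.95 and 10.26 at 21 weeks and at 11.95, 11.49 and 11.68 at 6 weeks, with no overlap. It fell by 1.47 ± 0.17 on the log2 scale, 2.77-fold (limma adjusted p = 0.0057). Without 6-week array 1 it fell by 1.35 and its limma adjusted p was 0.0501, and without both doubtful arrays the log2 difference was -1.36 with an adjusted p of 0.0871. The diabetic arrays, at 12.03 to 12.27, were above both nondiabetic groups.

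Chn2 encodes a chimaerin, which switches off the GTPase Rac. It was at 3.82, 4.13 and 3.60 at 21 weeks and at 5.20, 5.30 and 5.02 at 6 weeks. It fell by 1.33 ± 0.17 on the log2 scale, 2.51-fold (limma adjusted p = 0.014). The diabetic arrays, at 4.34 to 4.79, lay between the nondiabetic groups without overlapping either. Without both doubtful arrays the difference was -1.19 ± 0.20 and no longer passed (limma adjusted p = 0.233).

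Pim3 encodes a serine/threonine kinase that promotes cell survival and translation. It was at 6.04, 5.93 and 5.63 at 21 weeks and at 6.99, 6.94 and 7.04 at 6 weeks. It fell by 1.12 ± 0.14 on the log2 scale, 2.18-fold (limma adjusted p = 0.014). Its difference without both doubtful arrays was -1.01 ± 0.16, which did not pass (limma adjusted p = 0.215). With the replicate number of the labels as a block, its adjusted p was 0.0975.

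The nondiabetic 21-week arrays also serve as the controls of the diabetes comparison, so both comparisons share them; 1.44% of genes passed in the diabetes comparison. At 2310057J18Rik the diabetic arrays were above them by 1.96 ± 0.16 (limma adjusted p = 0.00015), and at Pim3 by 0.83 ± 0.14 (limma adjusted p = 0.0105). At Chn2 the diabetic difference was 0.67 ± 0.16 (limma adjusted p = 0.0628) and at Tll1 it was -0.27 ± 0.21 (limma adjusted p = 0.577). Coch and Tll1 were thus at similar levels on both sets of 21-week arrays, whereas 2310057J18Rik and Pim3 were lower on the nondiabetic ones than on either other set.

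**Figure D1:**
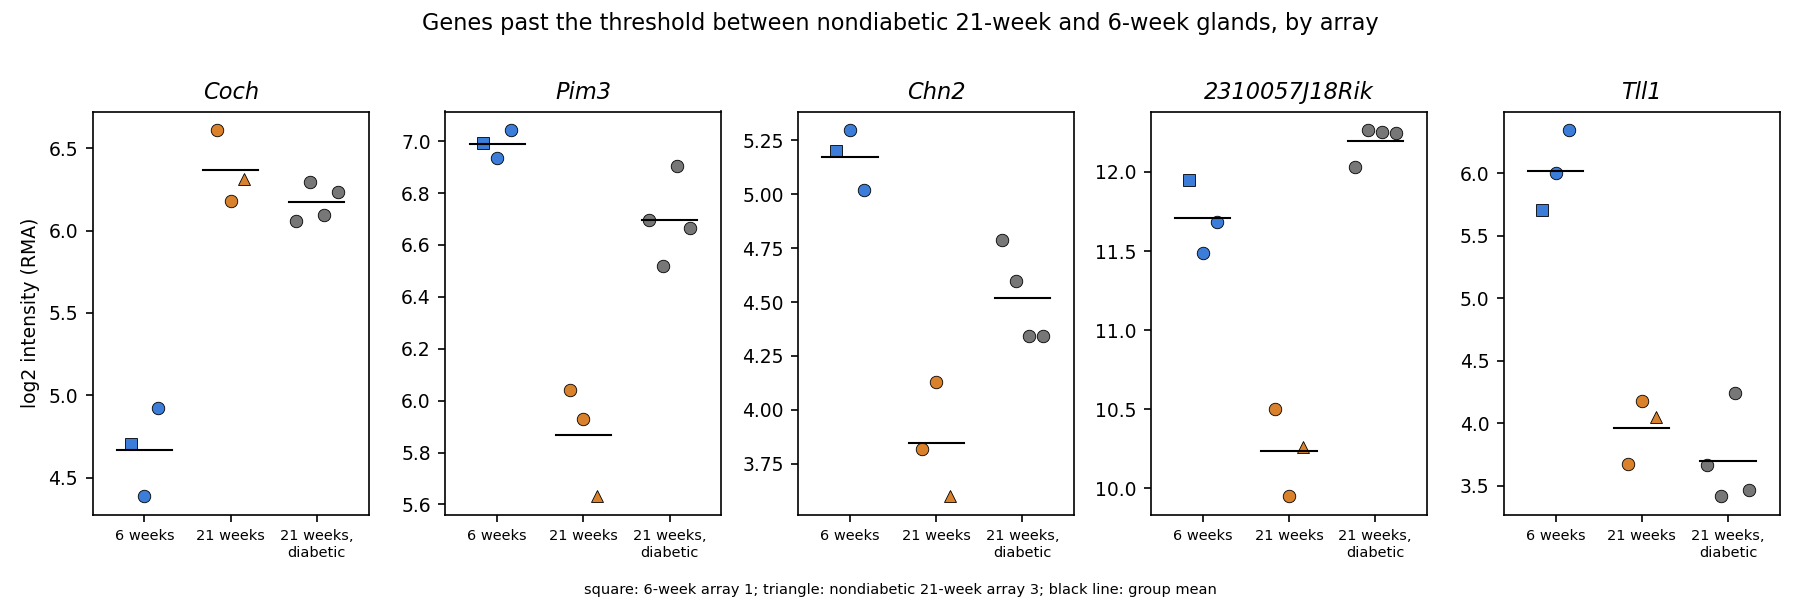
Log2 intensity of the 5 genes past the threshold on each of the 10 arrays, by group (6 weeks n = 3, nondiabetic 21 weeks n = 3, diabetic 21 weeks n = 4), with group means as black lines. The 2 nondiabetic groups do not overlap in any panel; the diabetic arrays sit with the 21-week arrays for Coch and Tll1 and above both nondiabetic groups for 2310057J18Rik.

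Next to these 5, the genes with the smallest p in each direction did not pass the threshold but had nondiabetic groups that did not overlap. Slfn2, a schlafen gene needed for T cell quiescence, was at 6.54, 6.00 and 5.31 at 21 weeks and at 4.44, 4.40 and 4.49 at 6 weeks, a log2 difference of 1.51 ± 0.24 (limma adjusted p = 0.0658). Without both doubtful arrays it was 1.83 ± 0.19 and passed (limma adjusted p = 0.0325). Naip6, a sensor of the inflammasome, was dim at both ages, at 2.84 to 3.60 against 1.66 to 2.22. Its 6-week values were below every array's 25th percentile (2.58 to 2.70). Naip6 thus entered the test through the 21-week arrays, nondiabetic and diabetic, where it was higher. On the other side, Ddah1, which degrades an inhibitor of nitric oxide synthesis, was at 5.29, 5.23 and 5.70 against 6.30, 6.41 and 6.41, a difference of -0.96 ± 0.15 (limma adjusted p = 0.0658).

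The other genes with the smallest p among the lower ones had differences of -0.73 to -1.13. Ccn1, an immediate-early matricellular protein, differed by -0.73 ± 0.12 and Txnip, a glucose-responsive thioredoxin-binding protein, by -0.80 ± 0.15. Ccn1 was at 5.59 to 5.80 on the 21-week arrays and at 6.43 to 6.49 on the 6-week arrays. Txnip was at 8.97 to 9.10 against 9.82 to 9.88, with an SD of 0.08 and 0.03 in the 2 groups. Adgrl2, an adhesion receptor, differed by -0.86 ± 0.15, Nt5dc2 by -0.86 ± 0.15, Rgs5, a pericyte marker, by -1.13 ± 0.21 and Ifitm2, an interferon-induced membrane protein, by -0.92 ± 0.17. None of these 6 passed (limma adjusted p of 0.0945 to 0.16). Sohlh2, a germ cell transcription factor and the sixth higher gene by p, exceeded the 25th percentile on 3 of the 10 arrays, at 2.89, 3.46 and 2.98, all of them 21-week arrays, so it entered the test through the group where it was higher.

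**Figure D2:**
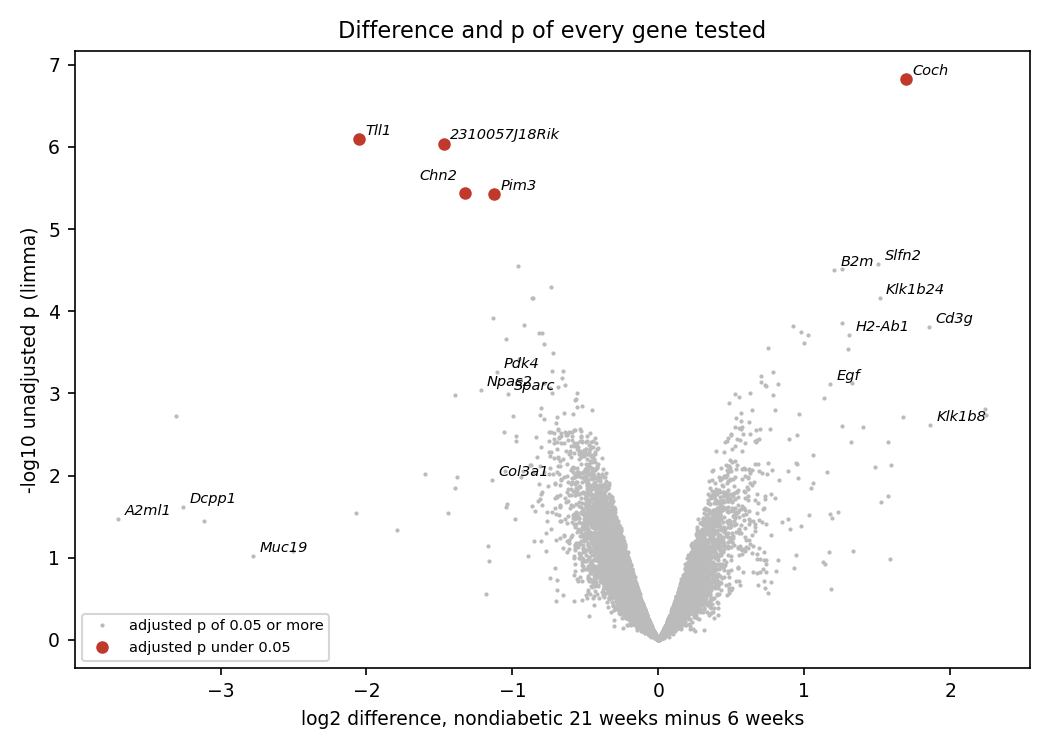
Each point is 1 of the 18826 genes, with the log2 difference (nondiabetic 21 weeks minus 6 weeks) on the x axis and -log10 of the unadjusted limma p on the y axis. Red points are the 5 genes past the adjusted threshold. Among the labelled genes, A2ml1, Dcpp1 and Muc19 at the left have large differences but did not pass that threshold, and the 21-week arrays disagree there.

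The rest of the comparison is described by 44 gene lists for cell types and pathways, with 698 of their 813 members measured. None of those members passed the threshold in limma (background 0.0266%). At an unadjusted p under 0.05, 52 were higher and 60 lower at 21 weeks, and these unadjusted counts are used below only to describe lists. Over all genes tested, 2.19% were higher and 5.27% lower at that level, 4.11% had nondiabetic groups that did not overlap with 21 weeks higher and 9.73% with 21 weeks lower, 38.2% had a higher mean at 21 weeks, and the median log2 difference was -0.06. The excess of lower genes depended on 21-week array 3. Without it 3.20% were higher and 3.15% lower at an unadjusted p under 0.05, without both doubtful arrays 3.33% and 2.85%, and the median was -0.0016 and -0.0019. Without 6-week array 1 they were 1.86% and 3.80%. The members named as examples were chosen after their values were seen, mostly as those with the smallest p of their list.

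Granular convoluted tubule genes had the largest shift of the lists described. All 13 measured members had a higher mean at 21 weeks, 8 at an unadjusted p under 0.05, and 11 had groups that did not overlap. Their median log2 difference was 1.32. The mean of the 13 genes was 9.63, 9.76 and 10.28 on the 21-week arrays and 8.57, 8.79 and 9.03 on the 6-week arrays, so the list mean did not overlap either. On the diabetic arrays it was 5.47 to 7.39, below both nondiabetic groups. The shift remained at 0.99 without both doubtful arrays, with 6 of 13 at an unadjusted p under 0.05.

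Among the members, Klk1b24, a tissue kallikrein, was at 8.88, 8.82 and 9.37 at 21 weeks and at 7.40, 7.40 and 7.71 at 6 weeks. Its log2 difference of 1.52 ± 0.26 had the smallest adjusted p of the list (limma adjusted p = 0.101). Egf, the growth factor stored in these tubules, was at 9.28, 9.54 and 10.20 against 8.22, 8.63 and 8.64, a difference of 1.18 ± 0.27 (limma adjusted p = 0.337). Klk1b8 was at 8.05, 8.78 and 9.79 against 6.62, 7.28 and 7.12. Klk1b1 was at 6.72, 7.34 and 8.13 against 5.34, 5.81 and 6.00. For Egf, Klk1b8 and Klk1b1, 21-week array 3, which stood apart, was the highest of the 6 and 6-week array 1 the lowest. Without both, the differences were 0.78 ± 0.28 for Egf, 1.21 ± 0.54 for Klk1b8 and 1.12 ± 0.48 for Klk1b1. Klk1 itself differed by 0.05 ± 0.15. The kallikreins are close paralogs, and how far their probe sets read each other's RNA was not tested, so the members are not independent readings.

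MHC class I and immunoproteasome genes also had higher means at 21 weeks. Of 13 measured members 12 had a higher mean, 7 at an unadjusted p under 0.05, with a median log2 difference of 0.37. B2m, the invariant light chain of MHC class I, was at 11.19, 10.80 and 10.71 at 21 weeks and at 9.81, 9.67 and 9.59 at 6 weeks, and the groups did not overlap. Its difference was 1.21 ± 0.19, or 2.31-fold, and its adjusted p of 0.0658 was the smallest of any list member (limma). Psmb8, an immunoproteasome subunit, was at 6.55, 6.21 and 6.20 against 5.34, 5.41 and 5.27, a difference of 0.98 ± 0.19 (limma adjusted p = 0.16).

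The heavy chains were less even. H2-K1 was at 5.96, 5.56 and 4.56 at 21 weeks and at 4.42, 4.46 and 4.33 at 6 weeks, with array 3 only just above the younger arrays. H2-Q4 was at 5.13, 5.26 and 5.41 against 4.37, 4.94 and 4.31. Nlrc5, the transactivator of class I genes, differed by 0.62 ± 0.20, Tap1, a subunit of the peptide transporter, by 0.61 ± 0.22 and Tapbp, which bridges class I to that transporter, by 0.37 ± 0.16. The list median was 0.57 without both doubtful arrays, with 8 of 13 members at an unadjusted p under 0.05. The list mean was 6.06, 5.84 and 5.60 at 21 weeks, with array 1 the highest and array 3 the lowest of its group. The class I heavy chains are close paralogs too, so their single values are uncertain.

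MHC class II genes had a median difference of 0.44, with 9 of 11 members higher in mean, 6 of them at an unadjusted p under 0.05 and 6 with groups that did not overlap. H2-Ab1 was at 8.45, 8.22 and 8.06 at 21 weeks and at 7.20, 6.75 and 6.84 at 6 weeks, a difference of 1.31 ± 0.25 (limma adjusted p = 0.16). H2-Aa was at 5.44, 5.10 and 5.0 against 4.16, 4.26 and 4.04, a difference of 1.02 ± 0.20 (limma adjusted p = 0.16). These are the chains of the class II dimer I-A, and at both genes the groups did not overlap. Ctss, the protease that trims the invariant chain, differed by 0.57 ± 0.17, and H2-DMa, which helps load peptide, by 0.38 ± 0.14. A probe set shared by Cd74, the invariant chain, and Mir5107 was tested in a separate fit of the 13053 probe sets without a single symbol. It was at 8.44, 8.25 and 8.0 against 7.24, 7.07 and 7.14, a difference of 1.08 ± 0.27 (limma adjusted p = 0.593). The class II median was 0.51 without both doubtful arrays. The class II list mean was 4.97, 4.86 and 4.61 at 21 weeks, again with array 1 the highest and array 3 the lowest of its group.

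**Figure D3:**
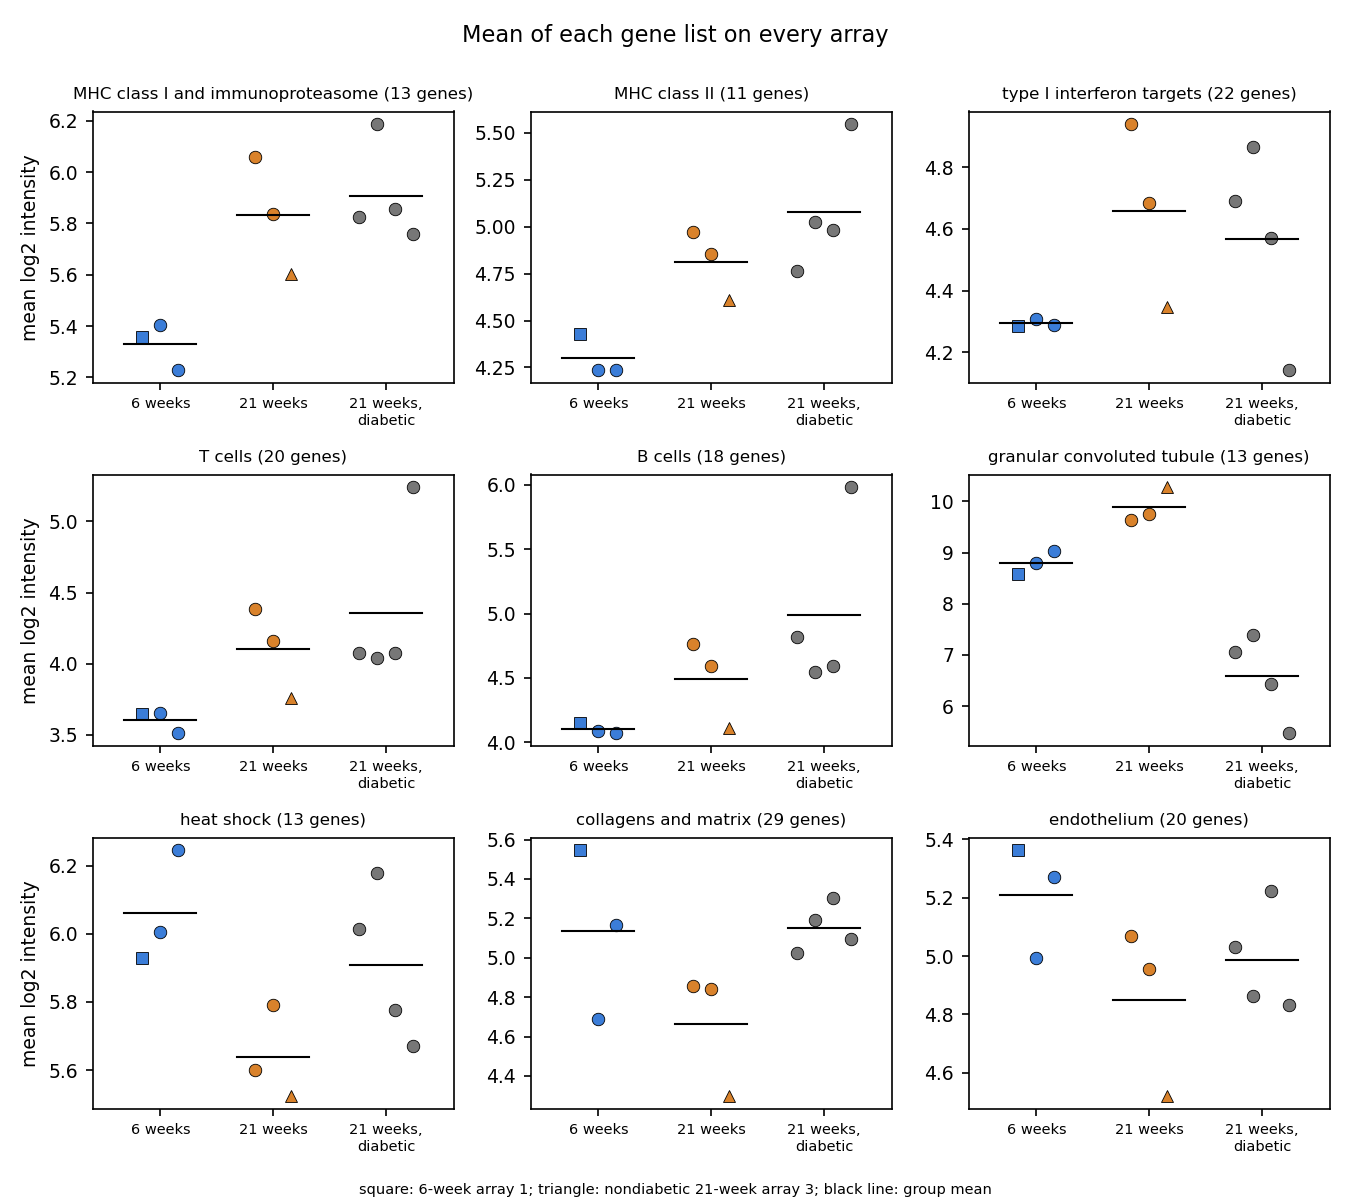
Mean log2 intensity of 9 gene lists on each of the 10 arrays, by group, with group means as black lines; y axes differ between panels. The nondiabetic groups do not overlap for MHC class I (5.60 to 6.06 against 5.23 to 5.40), MHC class II, type I interferon targets, T cells, granular convoluted tubule and heat shock, while B cells, collagens and endothelium overlap. For type I interferon targets the lowest 21-week array, array 3, is at 4.35 and the highest 6-week array at 4.31. For T cells array 3 is again the lowest, at 3.76 against 3.65.

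Type I interferon targets had a median difference of 0.36, with 20 of 22 members higher in mean and 6 at an unadjusted p under 0.05. Usp18, which dampens interferon receptor signalling, was at 6.24, 5.55 and 5.10 at 21 weeks and at 4.28, 4.63 and 4.58 at 6 weeks, a difference of 1.13 ± 0.27 (limma adjusted p = 0.376). Mx2, an antiviral GTPase, differed by 0.75 ± 0.25, Stat2, a transcription factor of the pathway, by 0.63 ± 0.22 and Irf7, another, by 0.61 ± 0.21. At Usp18 and Stat2, 21-week array 1 was the highest of the 6 arrays and array 3 the lowest of its group. The list median was 0.22 without 21-week array 1 and 0.47 without 21-week array 3. Interferon gamma targets had a list mean of 4.39, 4.25 and 3.93 against 3.93, 3.96 and 3.91, with overlap. Their median was 0.14, with 14 of 19 members higher and 5 lower in mean. At an unadjusted p under 0.05, 3 of 19 were higher. The median was 0.23 without 6-week array 1, 0.31 without 21-week array 3, with 6 of 19 at that level, and 0.29 without both. Cxcl9, a chemokine for activated T cells, was at 4.65, 4.66 and 5.01 against 3.30, 3.72 and 3.55, a difference of 1.26 ± 0.33 (limma adjusted p = 0.481). Irgm2, an immunity-related GTPase, differed by 1.05 ± 0.37.

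Promoters were searched for the core of the interferon-stimulated response element, GAAA followed by any 2 bases and GAAA, on both strands of RefSeq's GRCm38.p6 promoter windows, which run from 250 bases before to 50 bases after each start. The core was in 3.44% of 32851 windows and in 3.58% of the 14515 tested genes with a window. It was in 9 of 15 type I interferon targets, 8 of 12 interferon gamma targets, 3 of 10 MHC class I genes and 1 of 9 MHC class II genes, each gene counted once if any of its windows held it. The interferon lists hold known interferon targets, so their shares describe the lists and not the age difference. The search was planned for list members past the threshold, and no member passed. Of the 5 genes past the threshold the core was in the window of Tll1 alone, which fell. The windows below, 30 bases each with the core in capitals, were chosen after the values were seen, to set members with low p (B2m, Ctss, Stat2 and Irgm2) beside members with a difference near 0 (Ifit3 and Oas3) and beside Tll1. They are written 5′ to 3′ on the gene's strand, and where the core is on the opposite strand its reverse complement is in capitals.
B2m: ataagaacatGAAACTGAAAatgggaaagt
Ctss: gtctttaaatGAAACCGAAAtgaaagttca
Irgm2: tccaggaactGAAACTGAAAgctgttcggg
Stat2: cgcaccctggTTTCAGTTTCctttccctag
Oas3: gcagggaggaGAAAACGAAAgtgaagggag
Ifit3: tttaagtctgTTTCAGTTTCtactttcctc
Tll1: tagtaaaataGAAATGGAAAtgtcagcgcg

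In GRCm38.p6 these windows are at chr2:122147538-122147567 (plus strand, B2m), chr3:95526755-95526784 (plus, Ctss), chr11:58214903-58214932 (plus, Irgm2), chr10:128270266-128270295 (plus, Stat2), chr5:120777715-120777744 (minus, Oas3), chr19:34583397-34583426 (plus, Ifit3) and chr8:64206193-64206222 (minus, Tll1), all upstream of the annotated start. The same 10 letters, GAAACTGAAA, are in the windows of B2m and Irgm2, with differences of 1.21 and 1.05. Stat2 and Ifit3 carry their reverse complement, with differences of 0.63 and 0.00. Oas3 differed by 0.00 ± 0.18 with a core of its own. A match describes the letters of a window, and no binding was measured here.

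T cell genes had 20 of 20 measured members higher in mean at 21 weeks, 4 at an unadjusted p under 0.05, with a median difference of 0.44. Cd3g, a chain of the T cell receptor complex, was at 6.10, 5.61 and 4.47 at 21 weeks and at 3.47, 3.52 and 3.64 at 6 weeks, a difference of 1.85 ± 0.35 (limma adjusted p = 0.16). Arrays 1 and 2 were more than 1 log2 unit above array 3, which was itself above all 6-week arrays. Cd4 was at 5.05, 4.71 and 5.08 against 4.28, 4.46 and 3.63. Icos, a co-stimulatory receptor of activated T cells, differed by 0.59 ± 0.25 and Cd8a by 0.48 ± 0.26. The list mean was 4.39, 4.16 and 3.76 against 3.65, 3.65 and 3.51, and the list median was 0.28 without 21-week array 1 and 0.52 without both doubtful arrays. Without 21-week array 3, 7 were at an unadjusted p under 0.05. In RNA from a mixture of cells, more cells of a type and more RNA per cell cannot be told apart.

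B cell genes had a median difference of 0.43, with 14 of 18 members higher in mean and 3 at an unadjusted p under 0.05. The median was 0.29 without 21-week array 1 and 0.52 without both doubtful arrays, and the count was 0 without 6-week array 1, 6 without 21-week array 3 and 4 without both. Ighm, the heavy chain of IgM, was at 9.36, 9.76 and 9.05 at 21 weeks and at 8.29, 8.38 and 7.97 at 6 weeks, a difference of 1.18 ± 0.48 (limma adjusted p = 0.629). Cd79a, a signalling chain of the B cell receptor, was at 5.05, 4.37 and 4.26 against 3.66, 3.40 and 3.69. The groups did not overlap at either gene, but the wide spread of the diabetic arrays at B cell genes (list means 4.55 to 5.98) enters the error of the fit. The measured plasma cell genes had no common direction, with 5 of 13 higher in mean and a median of -0.01. The antibody chain genes of that list (Igha, Ighg1, Ighg2b, Ighg2c and Igkc) had no named probe set and are not among the 13. Jchain, which joins IgA and IgM into polymers, was at 6.43, 7.49 and 6.53 against 6.04, 4.99 and 4.69, and Derl3, a factor of endoplasmic reticulum degradation, at 8.32, 8.16 and 8.40 against 8.78, 8.72 and 8.63.

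Cytotoxic and natural killer cell genes had a median of 0.33, with 4 of 16 at an unadjusted p under 0.05. Without 21-week array 1 that median was 0.15, and without 21-week array 3 it was 0.53, with 8 of 16 at that level. Of the 16 members 13 were higher and 3 lower in mean. The list mean was 4.11, 3.99 and 3.60 against 3.66, 3.66 and 3.65, so 21-week array 3 was below every 6-week array. Xcl1, a chemokine of activated lymphocytes, was at 4.60, 4.49 and 4.53 against 3.85, 3.88 and 4.02. It was the only 1 of the 16 members with groups that did not overlap, against 4.11% of all genes with 21 weeks higher. Macrophage and dendritic cell genes had 11 of 22 higher and 11 lower in mean, with a median of 0.02 and 1 higher at an unadjusted p under 0.05. Without 6-week array 1 the median was 0.15, and without both doubtful arrays it was 0.18, with 4 higher at that level. The 16 genes of lymphoid follicles had no common direction, with 8 higher and 8 lower in mean. Their median was -0.03, and 0.17 without both doubtful arrays. Among them Ccr6 and Cr2, receptors of B cells, were higher by 0.68 ± 0.19 and 0.48 ± 0.21, and Cxcl12, a stromal chemokine, was lower by 0.59 ± 0.24. Cxcl13, the chemokine that draws B cells into follicles, was at 5.25, 4.60 and 4.04 at 21 weeks and at 5.54, 4.62 and 5.29 at 6 weeks, with overlap (difference -0.52 ± 0.51). On the diabetic arrays Cxcl13 was at 7.03 to 9.19. Of 26 proliferation genes 1 was higher and 0 were lower at an unadjusted p under 0.05 in limma.

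Collagens and other matrix genes had the most negative median of the lists, -0.52, with 27 of 29 members lower in mean and 10 at an unadjusted p under 0.05. That shift depended on the arrays that stood apart. The list mean was 4.86, 4.84 and 4.30 at 21 weeks and 5.55, 4.69 and 5.17 at 6 weeks, with 6-week array 1 the highest and 21-week array 3 the lowest, and 6-week array 2 below 21-week arrays 1 and 2. The median was -0.27 without 6-week array 1, -0.29 without 21-week array 3 and -0.09 without both, with 2 of 29 at an unadjusted p under 0.05. Col3a1, a fibrillar collagen, was at 5.42, 5.54 and 4.65 against 7.24, 5.38 and 6.40, and its difference went from -1.14 ± 0.38 to -0.41 ± 0.32 without both. Sparc, a collagen-binding protein, was at 5.82, 5.45 and 5.08 against 7.06, 6.01 and 6.38, with no overlap, and went from -1.03 ± 0.24 to -0.56 ± 0.19.

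Endothelial genes behaved likewise, with 17 of 20 lower in mean, 8 at an unadjusted p under 0.05 and a median of -0.41. That median was -0.28 without 6-week array 1, -0.20 without 21-week array 3 and -0.10 without both. Tie1, an endothelial receptor kinase, was at 4.51, 4.52 and 4.08 at 21 weeks and at 4.87, 5.04 and 4.96 at 6 weeks, a difference of -0.59 ± 0.15, and of -0.49 ± 0.15 without both. Cdh5, the cadherin of endothelial junctions, was at 6.93, 6.28 and 6.42 against 7.22, 7.03 and 7.11, a difference of -0.58 ± 0.17, and of -0.47 ± 0.21 without both. Kdr, the main receptor for vascular endothelial growth factor, was at 6.86, 6.95 and 6.42 against 7.73, 7.01 and 7.51, and its difference went from -0.68 ± 0.26 to -0.36 ± 0.30. Fibroblast markers had a median of -0.18, with 2 of 16 lower at an unadjusted p under 0.05, and of 0.03 without both, with 0 lower at that level in limma.

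**Figure D4:**
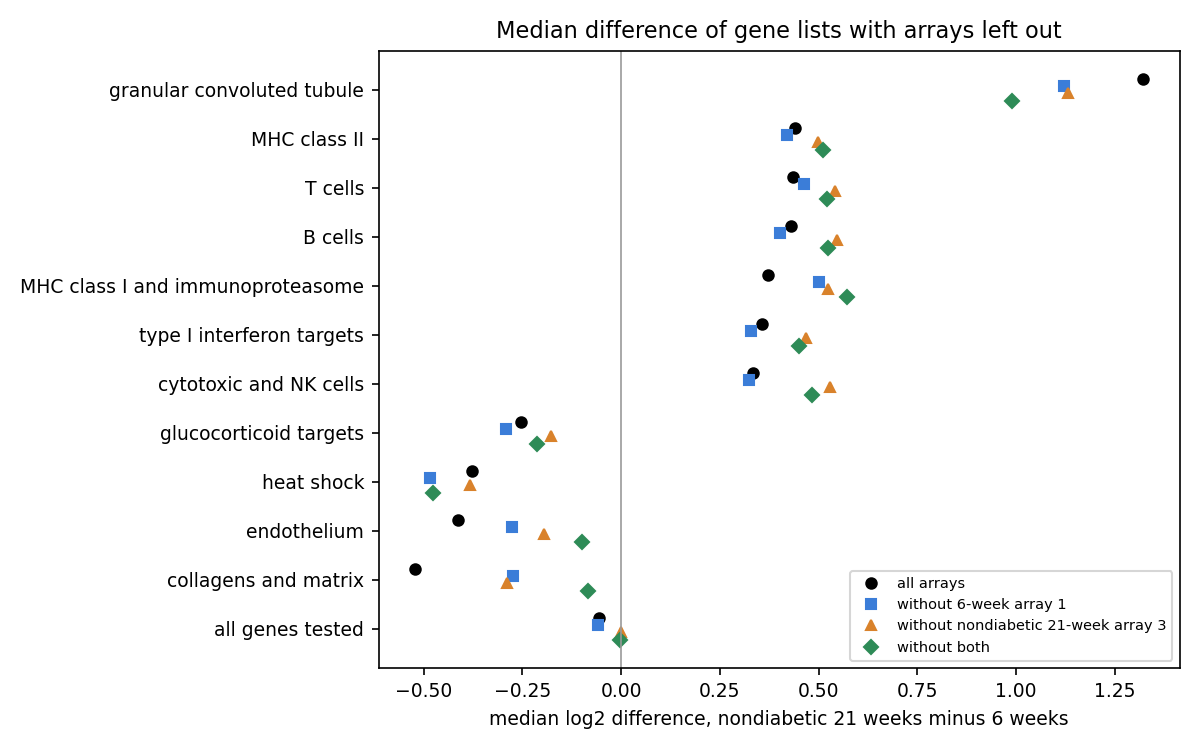
Median log2 difference (nondiabetic 21 weeks minus 6 weeks) of 11 gene lists and of all genes tested, with all arrays and with 6-week array 1, 21-week array 3 or both left out. The collagen and endothelium medians move to -0.09 and -0.10 without both arrays. The antigen-presentation, lymphocyte and type I interferon medians are then between 0.45 and 0.57, and the granular convoluted tubule median is 0.99. In the antigen-presentation, lymphocyte and type I interferon lists, 21-week array 3 had the lowest mean of its group. Leaving out 21-week array 1, which is not plotted, lowered the T cell, B cell, cytotoxic and type I interferon medians.

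Heat shock genes were lower in mean at 21 weeks in 13 of 13 members, 5 at an unadjusted p under 0.05, with a median of -0.38, and of -0.48 without both doubtful arrays. Hspe1, the mitochondrial co-chaperonin, was at 4.60, 4.51 and 4.17 at 21 weeks and at 5.22, 5.20 and 4.86 at 6 weeks, a difference of -0.67 ± 0.18 (limma adjusted p = 0.481). Hspb1, a small heat shock protein, was at 4.58, 4.24 and 4.31 against 4.95, 4.82 and 5.42. Hsph1 differed by -0.83 ± 0.31, Hspa8 by -0.38 ± 0.16 and Hsp90aa1 by -0.36 ± 0.15, all of them cytosolic chaperones or their cofactors. The list mean was 5.60, 5.79 and 5.52 against 5.93, 6.01 and 6.25, without overlap. Leaving out 6-week array 3, the highest, took the median to -0.24.

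Of 17 circadian clock genes 10 were higher and 7 lower in mean at 21 weeks, with a median of 0.12, and 4 were lower and 0 higher at an unadjusted p under 0.05 in limma. Without 21-week array 3 those counts were 3 lower and 4 higher. The 4 lower genes were Arntl, Npas2, Nfil3 and Per1. Arntl (BMAL1), the activator of the circadian loop, was at 4.98, 5.88 and 7.42 at 21 weeks and at 7.47, 7.42 and 7.53 at 6 weeks. The 6-week arrays thus lay close together, whereas the 21-week arrays spread over more than 2 log2 units, with array 3 at the 6-week level. Npas2, a partner of Arntl, followed the same order, at 4.38, 4.84 and 5.56 against 6.10, 6.07 and 6.27 (difference -1.22 ± 0.28, limma adjusted p = 0.359), and Nfil3, a clock-linked repressor, was at 5.99, 5.68 and 6.43 against 6.83, 6.73 and 6.90. Per1, a repressor of the loop that glucocorticoids also induce, was at 6.01, 5.56 and 5.40 against 6.26, 6.29 and 6.55. Dbp, a clock output factor, was at 6.73, 5.77 and 4.93 against 5.22, 5.51 and 5.41. The nuclear receptors Nr1d1, at 7.99, 7.52 and 6.65 against 7.11, 7.13 and 6.71, and Nr1d2, at 5.95, 5.91 and 4.16 against 5.24, 5.17 and 4.96, repress Arntl. At all 3 of these genes 21-week arrays 1 and 2 were above every 6-week array and array 3 was below every one. With all arrays the differences were 0.43 ± 0.35 for Dbp, 0.40 ± 0.27 for Nr1d1 and 0.22 ± 0.37 for Nr1d2. Without array 3 they were 0.87 ± 0.29, 0.77 ± 0.20 and 0.81 ± 0.18 and did not pass in limma either, with the lowest adjusted p, 0.32, at Nr1d2. Dbp turned negative without 21-week array 1, and Nr1d2 without array 1 or array 2. On the diabetic arrays Arntl was at 3.93 to 5.11 and Per1 at 6.95 to 8.25. The labels do not give the time of day at which glands were taken.

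Of 16 glucocorticoid targets 13 were lower in mean, 5 at an unadjusted p under 0.05, with a median of -0.25, and of -0.16 without 6-week array 3. Pdk4, which diverts pyruvate from oxidation, was at 5.03, 5.76 and 5.49 at 21 weeks and at 6.79, 6.26 and 6.53 at 6 weeks, a difference of -1.10 ± 0.24 (limma adjusted p = 0.307). Ddit4, an inhibitor of mTORC1, was at 5.06, 5.29 and 4.35 against 5.84, 5.94 and 5.89, and Cdkn1a, a cell cycle inhibitor, at 5.19, 5.10 and 4.73 against 5.69, 5.47 and 5.91. Pdk4 is also in the list of fatty acid oxidation and PPAR targets. That list had no common direction, with 8 of 18 members higher and 10 lower in mean. Its median was -0.04, against -0.06 over all genes tested. At an unadjusted p under 0.05, 4 of the 18 were lower. The other 3 were Acot1, an acyl-CoA thioesterase, lower by 0.75 ± 0.20, Cd36, a fatty acid transporter, lower by 0.75 ± 0.25, and Fgf21, a hormone of fasting, lower by 0.37 ± 0.17. On the diabetic arrays Pdk4 was at 7.17 to 8.08, above both nondiabetic groups. In lipogenesis the directions were split, with Scd1, a desaturase, at 8.09, 8.24 and 8.56 against 7.58, 7.71 and 7.74, Srebf1, its regulator, higher by 0.36 ± 0.14, and Thrsp, a lipogenic nuclear protein, lower by 0.64 ± 0.17.

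Imprinted growth genes, which fall in many mouse organs after birth, had 12 of 15 members lower in mean and 4 at an unadjusted p under 0.05. Their median was -0.13, against -0.06 over all genes tested. That count was 3 without 6-week array 1, 1 without 21-week array 3 and 0 without both doubtful arrays, with 1 higher in the last 2 cases, and the median was -0.06 without 6-week array 1 and -0.13 without both. Grb10, an adaptor that restrains insulin and growth factor signalling, was at 5.08, 5.21 and 4.99 at 21 weeks and at 5.69, 5.64 and 5.57 at 6 weeks, a difference of -0.54 ± 0.18 (limma adjusted p = 0.572). Peg3, an imprinted zinc finger gene, was at 4.42, 4.40 and 3.68 against 5.02, 4.88 and 4.86. The groups did not overlap at either gene.

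Secreted cargo of mucous and submandibular acini had few low p-values, with 1 of 15 mucous and sublingual genes and 2 of 14 submandibular acinar genes lower at an unadjusted p under 0.05, and 0 higher in limma. Their medians were -0.14 and -0.19, and without both doubtful arrays 0.06 and -0.07. Of the mucous genes 3 had groups that did not overlap with 21 weeks lower and 1 with 21 weeks higher. A few genes varied widely between the 21-week arrays. Muc19, the main gel-forming mucin of the mouse sublingual gland, was at 2.03, 10.86 and 4.70 at 21 weeks and at 8.42, 9.95 and 7.55 at 6 weeks. Dcpp1, a secreted protein of the demilune and parotid family, was at 3.11, 10.79 and 6.74 against 10.19, 10.74 and 9.48. A2ml1, a protease inhibitor that was in none of the lists and was picked after its values were seen, was at 2.99, 12.28 and 6.52 against 11.01, 11.77 and 10.11. At all 3 genes 21-week array 2 was above every 6-week array and 21-week arrays 1 and 3 were below every one. The differences with all arrays were -2.78 ± 1.54, -3.26 ± 1.27 and -3.70 ± 1.55 and did not pass (limma adjusted p of 0.713, 0.629 and 0.635). Without 21-week array 2 they were -5.27, -5.21 and -6.21 and passed (limma adjusted p of 0.0305, 0.0326 and 0.014). The labels do not say which of the salivary glands went into each sample.

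Of 15 parotid-type cargo genes 12 were lower in mean, 3 at an unadjusted p under 0.05, with a median of -0.19. That count was 0 without 6-week array 1, 5 without 21-week array 3 and 4 without both. Amy1, salivary amylase, was at 3.59, 4.24 and 5.09 at 21 weeks and at 7.46, 4.36 and 5.43 at 6 weeks. Smr3a, a secreted prohormone, was at 2.95, 1.98 and 7.08 against 9.18, 3.17 and 7.19, and Chia1, an acidic chitinase, at 3.82, 3.39 and 6.18 against 8.29, 4.48 and 5.98. The 15 genes of the list had a mean of 8.46 on 6-week array 1 and of 6.64 to 7.66 on the other nondiabetic arrays. The ages overlapped at all 3 genes, and on the diabetic arrays Amy1 was at 9.25 to 9.72, above all nondiabetic arrays. The part of this spread in the other lists was not tested.

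**Figure D5:**
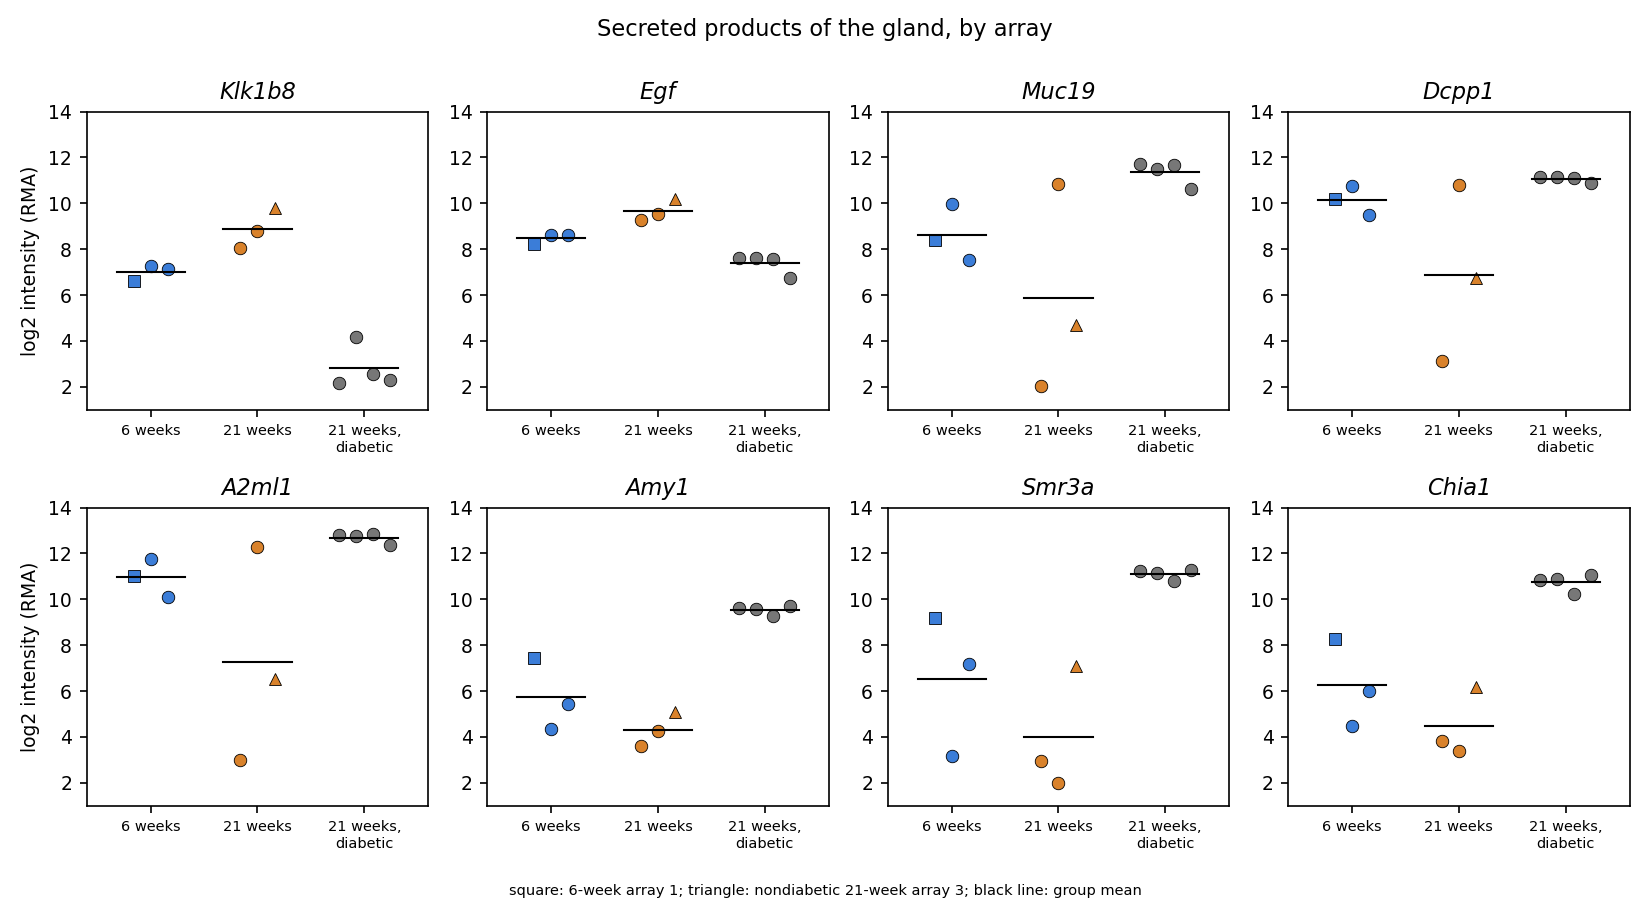
Log2 intensity of 8 secreted products of the gland on each of the 10 arrays, by group, with group means as black lines and a shared y axis. Klk1b8 and Egf separate the nondiabetic ages, whereas Muc19, Dcpp1 and A2ml1 are at 10.79 or more on 21-week array 2 and at 6.74 or less on 21-week arrays 1 and 3.

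Duct epithelium, myoepithelial, nerve, muscle, hormone receptor, respiratory chain and fluid transport lists had medians of -0.13 to 0.06. Those of the adipocyte, cholesterol synthesis, glycolysis, immediate-early and oxidative stress lists were -0.16 to -0.004. Only 1 erythroid gene was measured, at -0.08. Of 15 p53 and senescence genes 12 were lower in mean, with a median of -0.21, and of -0.02 without both doubtful arrays. Of 23 endoplasmic reticulum folding genes 18 were lower, with a median of -0.07. Of the 20 duct genes, 0 were higher or lower at an unadjusted p under 0.05 in limma. Other immune lists had no rise in median. Inflammatory and NF-kB genes had 12 higher and 11 lower in mean, with a median of 0.01. Complement genes had 3 higher and 10 lower (median -0.09), neutrophil genes 3 and 6 (median -0.003) and mast cell genes 3 and 4 (median -0.03). Without both doubtful arrays the inflammatory median was 0.16 and the complement median 0.05.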

How the data were processed

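RNA of salivary gland cells from 10 samples was measured on Affymetrix arrays. The authors' deposited log2 intensities had been normalized by RMA, and Affymetrix Power Tools is the program named (both per the submitters' processing notes). Their versions and settings, and any filter, are not stated in those sources. Of 41345 probe sets, 23521 had 1 gene symbol in the array's gene table, 1814 had several and 16010 were unnamed here. Genes above the array's own 25th percentile on at least 3 arrays were kept (18826), each by its brightest probe set. All 10 arrays entered 1 limma 3.58.1 model (R 4.3.3) with a mean per group. The same fit was also run on simulated data, with independent noise and each gene's mean and spread taken from these arrays. The number of arrays limits the precision.

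The members and lists were chosen with earlier results of these data known. Named genes were called genes with separate groups, leaving out predicted and provisional gene names, filled to 10 in each direction by the smallest p, with a set of fixed genes. That rule also asked for 4 members of any list holding a called gene, and no list held one. Promoter sequences are from RefSeq, GRCm38.p6. Alternatives changed the filter, probe set choice, variance prior, array weights, scaling, threshold, block and arrays used.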

Additional observations from a re-analysis of the deposited data

Results flagged for a closer look

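Among 21 genes named by the rule or called, the highest or lowest array of the diabetic group of 4 was compared with the rest of its group by Dixon's ratio, which chance passes in about 1 in 20 groups. It was passed in 2. Cd3g was at 6.22 on diabetic array 4 against 5.23 to 5.33 on the other 3, and 2310057J18Rik was at 12.03 on diabetic array 1 against 12.25 to 12.27. The nondiabetic groups, of 3 arrays each, are too small for that test.

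Among 13053 probe sets outside the gene comparison, those without a name here or with several, 1 passed the adjusted threshold in a limma fit of its own. Probe set 17209785, unnamed here, was at 3.59, 4.09 and 3.82 on the 21-week arrays, at 1.81, 1.68 and 1.75 on the 6-week arrays and at 2.82 to 3.12 on the diabetic arrays. Its log2 difference was 2.09 ± 0.17 (limma adjusted p = 0.0034). The 6-week values were below every array's 25th percentile (2.58 to 2.70). The probe set thus entered the test through the 21-week arrays, nondiabetic and diabetic, where it was higher.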

How the results depend on the processing

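The count of 5 genes (1 higher, 4 lower) was 5 with every probe set tested, no filter, a filter at the array median, averaged probe sets, a robust prior or a fold of at least 2. It was 6 (2 higher, 4 lower) under quantile normalization or median centring, where Slfn2 joined, 9 with a trended prior, 18 (8 higher, 10 lower) with array weights, 3 at an adjusted p under 0.01, and 0 with the 6 nondiabetic arrays alone, where 1377 genes had an unadjusted p under 0.05 against 1406. Leaving out each array in turn gave 1 to 10 genes: 2 without 6-week array 1, 1 without 6-week array 3, 8 without 21-week array 3 and 10 without 21-week array 2. Without 6-week array 1 and 21-week array 3 together, an alternative chosen after seeing the data, it was 3. With the replicate number as a block it was 4, without Pim3; same-numbered arrays had correlated deviations of 0.03 to 0.07, so the numbers are not shown to pair samples. Of 108 genes followed across the alternatives, the sex-chromosome genes not among them, 4 changed direction. Oas3 was at 0.13 with array weights, 0.041 under quantile normalization, 0.021 under median centring, -0.20 to 0.12 with single arrays left out and 0.17 without both doubtful arrays, and with single arrays left out Ifit3 was at -0.082 to 0.13, Nr1d2 at -0.087 to 0.81 and Dbp at -0.029 to 0.87. Coch passed in 16 of 17 alternatives, Tll1 in 15, 2310057J18Rik in 13 and Chn2 and Pim3 in 11. Array weights also passed Pigr and Mthfd2, and leaving out 21-week array 2 passed Klf10.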

Other observations

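Among the genes with the largest differences were 2 that the naming rule leaves out, picked here after their values were seen. Gm5886, a predicted gene, was at 5.74, 7.38 and 8.27 on the 21-week arrays and at 10.28, 10.30 and 10.74 on the 6-week arrays, with no overlap, and its difference of -3.31 ± 0.85 did not pass (limma adjusted p = 0.477). The T cell receptor segment Trav9d-3 was at 6.76, 6.28 and 5.11 against 3.35, 4.50 and 3.57, a difference of 2.24 ± 0.56 (limma adjusted p = 0.449). At Trav9d-3, 21-week array 1 was the highest and array 3 the lowest of its group, the order also seen at Cd3g. Receptor segments are close paralogs, so such a value is uncertain.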
